A study of Mus musculus with 9 samples.

Results

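The genes described here are 29 genes of sterol and fatty acid synthesis, picked by symbol from the 21959 genes in the deposited table and measured by RNA sequencing in DC2.4, a mouse dendritic cell line. They comprise 18 enzymes of cholesterol synthesis, 8 enzymes that make, elongate or desaturate fatty acids, and 3 genes of sterol regulation and transport. The rule names symbols and uses no measured value, but the genes were chosen with earlier results of these data known. The 9 libraries fall into 3 groups of 3, titled OMVSSDC, PBSDC and ZJDC, and all are labelled as the same cell line and cell type. The series' description names EMV@SS, engineered extracellular vesicles, as the treatment given to the cells. The labels do not spell out OMVSS or ZJ, and they give neither the group that received those vesicles nor a dose or time. PBSDC was taken as the reference because PBS is the usual abbreviation of phosphate-buffered saline, a vehicle. The labels do not say that the 3 libraries of a group are separate cultures, so p-values measure the spread between these libraries, which may be technical.

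Cholesterol is built from acetyl-CoA by way of mevalonate, isoprenoid units, squalene and lanosterol, and the enzymes of that chain are commonly transcribed together under SREBP2, the product of Srebf2. SREBP proteins stay in the endoplasmic reticulum with SCAP and INSIG when sterols are plentiful and move to the Golgi for cleavage when sterols are scarce. Fatty acid synthesis draws on the same acetyl-CoA, and its genes are classical targets of SREBP1. In macrophages and dendritic cells both pathways are known to be remodelled during innate immune activation.

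Library totals ranged from 12784931 to 18388959 counts. Levels are given as CPM, counts scaled to library totals by TMM, a correction for differences in library composition. A count of 0 allows up to 3 counts, or 0.163 to 0.235 CPM by library; such limits cover counting error only. Within OMVSSDC, replicates 1 and 2 differed from each other by a chi-square per degree of freedom of 1.87 and from replicate 3 by 61.2 and 64.5. The other same-group pairs differed by 2.54 to 8.94. The main counts that involve OMVSSDC are therefore also given without replicate 3 and with it alone, as are some single genes whose value or call depends on it. Genes given on all libraries only can depend on it too. Against PBSDC, the log2 fold change of Mvk in OMVSSDC was -0.85 without replicate 3 and -1.28 with it alone. That of Npc2 was 1.41 and 0.87. Of 18 dendritic and myeloid markers, 15 passed the filter on low counts, and their summed level was 4249 to 4871 CPM in OMVSSDC, 4543 to 4659 in ZJDC and 4962 to 5076 in PBSDC. The MHC class II genes H2-Aa and H2-Ab1 and the dendritic progenitor receptor gene Flt3 were under 1 CPM in every library. All 9 T, B and NK cell markers were under 1 CPM, and Cd3e, Cd8a, Ncr1 and Klrb1c were at 0 throughout. Of 7 fibroblast or endothelial markers 6 passed the filter, and they summed to 26.9 to 31.9 CPM in PBSDC, 15.8 to 21.1 in ZJDC, and 10.8, 10.3 and 30.1 in OMVSSDC replicates 1, 2 and 3. Single myeloid markers differed from PBSDC in either direction: Csf1r, the M-CSF receptor gene, was at 1095 to 1173 CPM in PBSDC, 541 to 566 in ZJDC and 525 to 591 in OMVSSDC, while the co-stimulatory gene Cd86 was at 134 to 145, 299 to 307 and 304 to 332. Of 6 adipocyte markers 1 passed the filter, Fabp4, and their sums were at most 5.79 CPM in any library, with Lep at 0. Hepatocyte, epithelial and granulocyte or erythroid markers summed to at most 2.26, 1.41 and 8.95 CPM. The part of these marker differences in the results was not tested. In a bulk sample, fewer expressing cells and less RNA per cell cannot be told apart.

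Promoter sequence was matched for 22 of the 29 genes, as RefSeq windows on GRCm38.p6 that run from 250 bases before to 50 bases after a start site. The windows were searched on both strands for CCAAT, the box bound by NF-Y, a usual partner of SREBP, and for TCACNCCAC, a core of the sterol response element. CCAAT occurred in windows of 18 of the 22 genes (81.8%), against 43.7% of tested genes and 41.1% of all genes with a window. TCACNCCAC occurred for 1 of 22, Hmgcs1 (4.55%), against 1.32% of tested genes. The Sp1 box GGGCGG occurred for 18 of 22 (81.8%, against 68.8% of tested genes) and the E-box CACGTG for 4 of 22 (18.2%, against 11.8%). A match of letters is not a bound site. A missing match does not show that a site is absent, since only these letter patterns were searched, and only in this window. The 250 bases upstream of the start are shown for 5 genes with large differences between groups and for Sc5d, which behaved otherwise. The 5 are not those with the largest differences. In log2 fold change of OMVSSDC against PBSDC, Fads2 (-1.38), Cyp51 (-1.30) and Nsdhl (-1.28) exceeded Hmgcs1 (-1.09) and are not shown. Capitals mark CCAAT or its complement ATTGG, and in Hmgcs1 also TCACCCCAC.
Hmgcs1, chr13:119690101-119690350, + strand: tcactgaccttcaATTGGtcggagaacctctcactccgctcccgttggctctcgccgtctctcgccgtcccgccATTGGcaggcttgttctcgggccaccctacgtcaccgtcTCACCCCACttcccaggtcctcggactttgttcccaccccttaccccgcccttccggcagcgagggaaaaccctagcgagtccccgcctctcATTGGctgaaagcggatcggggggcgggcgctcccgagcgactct
Idi1, chr13:8885356-8885605, + strand: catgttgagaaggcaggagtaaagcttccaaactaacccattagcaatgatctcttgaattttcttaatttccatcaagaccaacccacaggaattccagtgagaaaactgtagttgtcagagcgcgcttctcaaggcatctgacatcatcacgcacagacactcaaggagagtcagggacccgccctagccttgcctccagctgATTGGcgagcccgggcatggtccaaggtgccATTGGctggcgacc
Hsd17b7, chr1:169969206-169969455, - strand: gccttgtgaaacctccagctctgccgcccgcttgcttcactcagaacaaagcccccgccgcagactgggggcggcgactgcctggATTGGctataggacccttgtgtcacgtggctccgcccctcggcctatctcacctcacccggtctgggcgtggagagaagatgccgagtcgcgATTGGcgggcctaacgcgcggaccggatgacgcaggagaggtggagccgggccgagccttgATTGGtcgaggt
Fasn, chr11:120824548-120824797, - strand: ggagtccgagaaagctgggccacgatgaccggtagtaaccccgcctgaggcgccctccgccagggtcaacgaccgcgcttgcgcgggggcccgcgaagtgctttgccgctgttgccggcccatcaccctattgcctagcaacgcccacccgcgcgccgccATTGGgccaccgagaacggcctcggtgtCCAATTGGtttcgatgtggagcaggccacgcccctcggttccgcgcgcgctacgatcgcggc
Acat2, chr17:12960726-12960975, - strand: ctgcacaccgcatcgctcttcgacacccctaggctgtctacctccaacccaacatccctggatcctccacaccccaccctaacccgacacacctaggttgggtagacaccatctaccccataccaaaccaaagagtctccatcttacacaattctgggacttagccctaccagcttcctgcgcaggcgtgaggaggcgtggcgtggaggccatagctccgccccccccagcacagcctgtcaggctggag
Sc5d, chr9:42264301-42264550, - strand: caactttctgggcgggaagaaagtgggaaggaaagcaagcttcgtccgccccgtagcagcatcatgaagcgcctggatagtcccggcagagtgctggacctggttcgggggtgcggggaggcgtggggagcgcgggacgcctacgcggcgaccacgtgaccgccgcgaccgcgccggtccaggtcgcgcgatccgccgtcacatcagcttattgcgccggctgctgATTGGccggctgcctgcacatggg
The Hmgcs1, Hsd17b7 and Fasn stretches hold 3 CCAAT matches each, of which a pair in Fasn overlaps, Idi1 holds 2 and Sc5d 1. The Acat2 stretch holds none, as did the whole windows of Acaca, Elovl6 and Fads2.

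Most of the 29 genes were lower in OMVSSDC and in ZJDC than in PBSDC, and 11 of them passed as lower in OMVSSDC than in ZJDC. Of the 28 that passed the filter, 24 fell and 0 rose in OMVSSDC against PBSDC (edgeR; 1 was higher at an unadjusted p under 0.05, and DESeq2 and limma-voom also called 0 higher), where 30.2% of all tested genes fell and 33.4% rose. In ZJDC against PBSDC, 21 fell and 2 rose, with 27.1% falling and 27.6% rising among all tested genes. The counts by pathway step below cover few genes each and are to be read against these same shares of all tested genes. The 2 comparisons share the PBSDC libraries. The median log2 fold change of the 28 genes was -0.93 in OMVSSDC and -0.54 in ZJDC, beside 0.05 and 0.01 over all tested genes. A log2 fold change below -1 was measured for 13 of 28 in OMVSSDC (7.01% of tested genes) and 4 of 28 in ZJDC (4.05%). Summed over the 18 cholesterol enzymes, the level was 1060 ± 33.3 CPM in PBSDC, 804 ± 14.2 in ZJDC and 599 ± 22.4 in OMVSSDC (SD, n = 3 each), where replicates 1, 2 and 3 had 581, 592 and 624. Summed over the 8 fatty acid enzymes, it was 1708 ± 95.6, 1061 ± 16.0 and 785 ± 33.0. Neither sum overlapped between groups. With OMVSSDC replicate 3 left out, or as the lone OMVSSDC library, 24 genes fell against PBSDC and 1 rose, Tm7sf2 without it and Sc5d with it alone. Of all tested genes 36.0% fell and 39.0% rose without it, and 31.3% fell and 30.7% rose with it alone. A lone library is assumed to vary like the other groups.

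**Figure D1:**
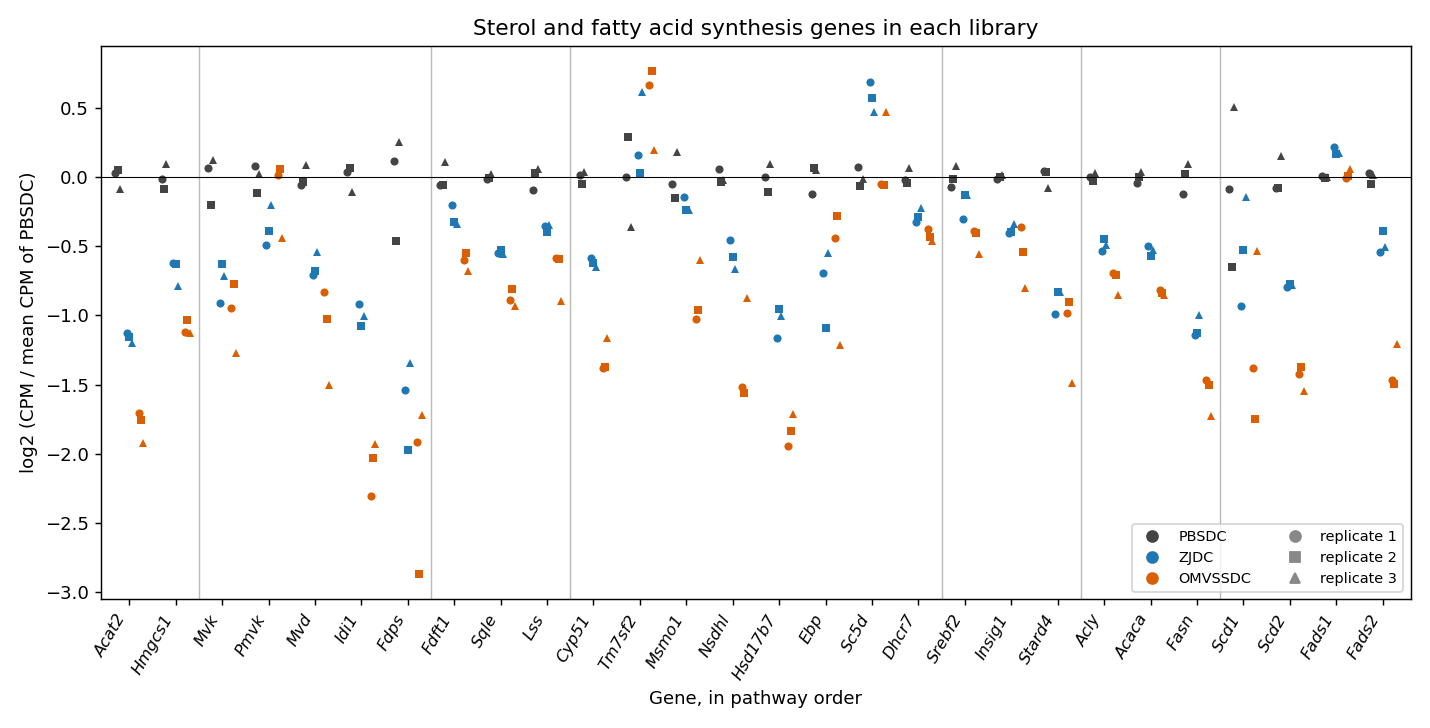
Level of each of the 28 tested genes in every library, as log2 of CPM over the mean CPM of PBSDC, in pathway order (horizontal axis); colours mark the groups and symbols the replicates. For 17 of the 28 genes the OMVSSDC libraries all lie below every ZJDC library, and the ZJDC libraries all below every PBSDC library. That order held for 8.63% of all tested genes. Pmvk, Tm7sf2, Sc5d and Fads1 are among the members that depart from it.

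Both genes of the steps up to HMG-CoA fell in both comparisons with PBSDC. Acat2 encodes the cytosolic thiolase that joins acetyl-CoA units. Its levels were 57.0, 58.1 and 52.7 CPM in PBSDC, 25.7, 25.1 and 24.4 in ZJDC and 17.2, 16.5 and 14.8 in OMVSSDC. No library of a lower group reached a higher one. It was 3.46-fold lower in OMVSSDC than in PBSDC, or -1.79 (SE 0.0848, adjusted p = 9.98e-08) on the log2 scale, and 2.24-fold lower in ZJDC, -1.16 (SE 0.0819, adjusted p = 1.91e-06). Acat2 has a close relative in Acat3, and reads shared between them may have been split. Hmgcs1, which encodes HMG-CoA synthase, had 66.7, 63.4 and 71.8 CPM in PBSDC, 43.6, 43.6 and 39.0 in ZJDC and 31.0, 32.9 and 30.8 in OMVSSDC. The 3 groups were again apart. Hmgcs1 fell by 1.09 (SE 0.0789, adjusted p = 1.34e-06) in OMVSSDC and by 0.68 (SE 0.0777, adjusted p = 4.77e-05) in ZJDC on the log2 scale.

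Of 5 genes from mevalonate to farnesyl diphosphate, 4 fell in each comparison with PBSDC. Idi1, which encodes the isomerase that interconverts the 5-carbon isoprenoid units, had 60.7, 61.7 and 55.0 CPM in PBSDC, 31.4, 28.1 and 29.4 in ZJDC and 12.0, 14.5 and 15.5 in OMVSSDC. It was 4.22-fold lower in OMVSSDC (-2.08, SE 0.105, adjusted p = 1.51e-07) and 1.99-fold lower in ZJDC (-0.996, SE 0.0992, adjusted p = 1.92e-05). The groups did not overlap, and OMVSSDC replicate 3, at 15.5, was the highest of its group. Mvd, which encodes mevalonate diphosphate decarboxylase, had 24.3, 24.7 and 26.8 CPM in PBSDC, 15.5, 15.8 and 17.3 in ZJDC and 14.2, 12.4 and 8.93 in OMVSSDC, also without overlap. Its log2 fold changes against PBSDC were -1.09 (SE 0.149, adjusted p = 0.000114) in OMVSSDC and -0.64 (SE 0.145, adjusted p = 0.00386) in ZJDC; in OMVSSDC the value was -0.93 without replicate 3 and -1.50 with it alone. Mvk, mevalonate kinase, averaged 15.9 ± 1.83 CPM in PBSDC, 9.46 ± 0.916 in ZJDC and 8.02 ± 1.37 in OMVSSDC (SD, n = 3), with OMVSSDC and ZJDC overlapping. It fell by 0.98 and 0.75 on the log2 scale (adjusted p = 0.000268 and 0.00177). Fdps, farnesyl diphosphate synthase, was thinly counted: 45, 26 and 40 counts in PBSDC, 15, 8 and 18 in ZJDC and 9, 6 and 11 in OMVSSDC. Its fold changes, -2.11 (SE 0.337, adjusted p = 0.000341) and -1.56 (SE 0.311, adjusted p = 0.00187), rest on those counts, and how reads shared with its pseudogenes were assigned is not stated in the sources used here.

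Pmvk, phosphomevalonate kinase, was the gene of this stretch that did not pass in either comparison. It had 18.4, 16.0 and 17.7 CPM in PBSDC, 12.3, 13.2 and 15.1 in ZJDC and 17.5, 18.1 and 12.8 in OMVSSDC. The ZJDC libraries and OMVSSDC replicate 3 lay below PBSDC, whereas OMVSSDC replicates 1 and 2 lay within its range. The log2 fold changes were -0.11 (SE 0.143, adjusted p = 0.537) in OMVSSDC and -0.36 (SE 0.144, adjusted p = 0.0579) in ZJDC. With replicate 3 as the lone OMVSSDC library Pmvk was -0.45 (adjusted p = 0.015), and without it 0.03 (adjusted p = 0.786). In ZJDC, Pmvk passed without OMVSSDC replicate 3 (adjusted p = 0.003) and without ZJDC replicate 3 (0.0489). It also passed there when only those 2 groups were fitted (adjusted p = 0.00504), and on all libraries with RLE size factors (0.0469) or DESeq2 (0.0365). Its log2 fold change was -0.36 without OMVSSDC replicate 3 and -0.35 with 2 groups. Calls over all genes in ZJDC against PBSDC were 6323 of 11568 in the main fit. They rose to 8242 of 11761 without OMVSSDC replicate 3 and 8009 of 11398 with 2 groups. That rise also applies to Msmo1, Srebf2, Srebf1 and Coq2 under those settings.

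All 3 genes from squalene to lanosterol fell in both comparisons. Sqle encodes squalene epoxidase, a flux-controlling monooxygenase. It had 155, 155 and 158 CPM in PBSDC, 107, 108 and 106 in ZJDC and 84.1, 88.8 and 81.6 in OMVSSDC, with narrow groups that did not overlap. The log2 fold changes were -0.88 (SE 0.0574, adjusted p = 7.13e-07) in OMVSSDC and -0.55 (SE 0.0569, adjusted p = 2.52e-05) in ZJDC. Fdft1, squalene synthase, fell by 0.61 and 0.29 on the log2 scale (adjusted p = 8.49e-05 and 0.0109), from 50.5 ± 3.45 CPM to 33.0 ± 1.49 in OMVSSDC and 41.4 ± 2.18 in ZJDC (SD, n = 3). Without PBSDC replicate 3 the adjusted p of Fdft1 in ZJDC was 0.0505 (log2 fold change -0.23). Lss, lanosterol synthase, fell by 0.68 and 0.37 (adjusted p = 0.000149 and 0.00841). Its levels were 39.0 ± 2.08, 30.2 ± 0.504 and 24.3 ± 2.91 CPM in PBSDC, ZJDC and OMVSSDC.

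Of 8 genes between lanosterol and cholesterol, 6 fell in OMVSSDC, and 5 fell and 1 rose in ZJDC. Hsd17b7, a sterol 3-keto reductase, had 70.2, 65.2 and 75.1 CPM in PBSDC, 31.4, 36.2 and 34.9 in ZJDC and 18.3, 19.7 and 21.4 in OMVSSDC. The groups were apart, and the gene was 3.55-fold lower in OMVSSDC (-1.83, SE 0.0936, adjusted p = 1.60e-07) and 2.06-fold lower in ZJDC (-1.04, SE 0.0901, adjusted p = 7.31e-06). Cyp51, lanosterol 14-alpha demethylase, had 104, 100.1 and 106 CPM in PBSDC, 68.9, 67.1 and 65.9 in ZJDC and 39.8, 39.9 and 46.2 in OMVSSDC, again without overlap. It fell by 1.30 and 0.62 on the log2 scale (adjusted p = 2.85e-07 and 5.19e-05). Nsdhl, a decarboxylating sterol dehydrogenase, had 45.1, 42.2 and 42.7 CPM in PBSDC, 31.6, 28.96 and 27.3 in ZJDC and 15.1, 14.7 and 23.6 in OMVSSDC. Replicate 3 of OMVSSDC was the highest of its group yet below every ZJDC library. The log2 fold changes of Nsdhl were -1.28 (SE 0.162, adjusted p = 6.57e-05) and -0.57 (SE 0.156, adjusted p = 0.0112), and in OMVSSDC -1.54 without replicate 3 and -0.88 with it alone. Msmo1, the C4 methylsterol oxidase, had 105, 98.1 and 123 CPM in PBSDC, 98.4, 92.3 and 92.3 in ZJDC and 53.5, 55.9 and 71.9 in OMVSSDC. It fell in OMVSSDC, -0.85 (SE 0.120, adjusted p = 0.000143), while ZJDC overlapped PBSDC, -0.21 (SE 0.118, adjusted p = 0.163). Without OMVSSDC replicate 3, Msmo1 passed in ZJDC as well (adjusted p = 0.00754), as it did when only those 2 groups were fitted (0.0138). Dhcr7, 7-dehydrocholesterol reductase, changed least of the sterol enzymes that fell in OMVSSDC, from 127 ± 5.29 to 94.4 ± 3.03 CPM there (-0.42, adjusted p = 0.000175) and 104 ± 3.64 in ZJDC (-0.28, adjusted p = 0.00328).

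Sc5d and Tm7sf2 departed from that pattern, and Ebp fell with calls that depended on single libraries. Sc5d encodes the C5 sterol desaturase that acts just before Dhcr7. It had 100.3, 90.9 and 94.5 CPM in PBSDC, 153, 142 and 132 in ZJDC and 91.8, 91.4 and 132 in OMVSSDC. Every ZJDC library lay above every PBSDC library, OMVSSDC replicates 1 and 2 lay with PBSDC, and OMVSSDC replicate 3 lay beside the lowest ZJDC library. Sc5d thus rose in ZJDC, 0.58 (SE 0.133, adjusted p = 0.00418), and did not pass in OMVSSDC, 0.14 (SE 0.133, adjusted p = 0.373). With replicate 3 as the lone OMVSSDC library it passed as higher, at 0.47 (adjusted p = 8.91e-06), and without it the value was -0.06 (adjusted p = 0.397). Tm7sf2, a C14 sterol reductase, had 78, 82 and 49 counts in PBSDC, 91, 60 and 131 in ZJDC and 101, 140 and 78 in OMVSSDC. Its log2 fold changes were positive, 0.56 (SE 0.227, adjusted p = 0.0508) and 0.30 (SE 0.229, adjusted p = 0.294), and it passed in OMVSSDC without OMVSSDC replicate 3 (adjusted p = 0.00163), PBSDC replicate 2 (0.0368) or ZJDC replicate 3 (0.0441). Ebp, the delta8-delta7 sterol isomerase, had 17.2, 19.5 and 19.4 CPM in PBSDC, 11.6, 8.77 and 12.8 in ZJDC and 13.8, 15.4 and 8.05 in OMVSSDC. All libraries of OMVSSDC and ZJDC lay below PBSDC, and replicate 3 was the lowest. Ebp fell in OMVSSDC, -0.59 (SE 0.216, adjusted p = 0.0355), and in ZJDC, -0.75 (SE 0.217, adjusted p = 0.014). In OMVSSDC its log2 fold change was -0.35 without replicate 3 and -1.22 with it alone. The call in OMVSSDC was lost without PBSDC replicate 1, 2 or 3 (adjusted p = 0.0538, 0.0882 and 0.0883) or ZJDC replicate 1 (0.0502), and the call in ZJDC without ZJDC replicate 2 (0.0566).

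The 3 genes of regulation and transport fell in OMVSSDC. Srebf2, which encodes the transcription factor SREBP2, had 326, 339 and 363 CPM in PBSDC, 277, 313 and 314 in ZJDC and 262, 259 and 233 in OMVSSDC. The groups were apart, and the drop was modest: -0.45 (SE 0.0768, adjusted p = 0.000543) in OMVSSDC and -0.19 (SE 0.0766, adjusted p = 0.0626) in ZJDC. Srebf2 passed in ZJDC without OMVSSDC replicate 3 (adjusted p = 0.000993), when only those 2 groups were fitted (0.00257), and on all libraries with RLE size factors (0.0466) or DESeq2 (0.0349). Insig1, which encodes an endoplasmic reticulum anchor of SCAP and is itself an SREBP target, had 50.8, 51.3 and 52.0 CPM in PBSDC, 38.7, 39.0 and 40.7 in ZJDC and 40.0, 35.2 and 29.4 in OMVSSDC. It fell by 0.56 and 0.38 on the log2 scale (adjusted p = 0.00077 and 0.00891). Stard4, a cytosolic cholesterol carrier, had 42.9, 42.8 and 39.4 CPM in PBSDC, 21.0, 23.5 and 23.4 in ZJDC and 21.1, 22.3 and 14.8 in OMVSSDC. Replicate 3 was the lowest library for Insig1 and for Stard4. OMVSSDC replicate 1 lay within the range of ZJDC for both genes, and replicate 2 for Stard4 alone. Stard4 fell by 1.10 in OMVSSDC and 0.88 in ZJDC (adjusted p = 6.23e-05 and 0.000352). In OMVSSDC, Insig1 was -0.46 and Stard4 -0.94 without replicate 3, and -0.81 and -1.50 with it alone.

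The genes that build palmitate fell in both comparisons. Fasn, fatty acid synthase, had 545, 602 and 636 CPM in PBSDC, 269.7, 272 and 297 in ZJDC and 215, 209.6 and 179.6 in OMVSSDC. It was 2.95-fold lower in OMVSSDC, -1.56 (SE 0.0888, adjusted p = 3.09e-07), and 2.12-fold lower in ZJDC, -1.09 (SE 0.0877, adjusted p = 4.64e-06). The groups did not overlap, and replicate 3 of OMVSSDC was the lowest library. Acly, ATP citrate lyase, which supplies cytosolic acetyl-CoA to both pathways, had 291, 285 and 297 CPM in PBSDC, 201, 213 and 207 in ZJDC and 179.7, 178 and 161 in OMVSSDC. Acaca, acetyl-CoA carboxylase 1, had 135, 139 and 143 CPM in PBSDC, 98.0, 93.2 and 96.2 in ZJDC and 78.8, 77.7 and 76.9 in OMVSSDC. Both genes kept the same order of groups without overlap. Acly fell by 0.75 and 0.49 (adjusted p = 4.11e-06 and 0.000104), and Acaca by 0.83 and 0.53 (adjusted p = 8.41e-07 and 2.52e-05), on the log2 scale.

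Among the enzymes that modify fatty acids, Scd2 and Fads2 fell and Fads1 did not. Scd2, a stearoyl-CoA desaturase that makes monounsaturated fatty acids, had 449.5, 449.6 and 528 CPM in PBSDC, 274, 278 and 277 in ZJDC and 177, 184 and 163 in OMVSSDC. It was 2.73-fold lower in OMVSSDC, -1.45 (SE 0.0796, adjusted p = 2.50e-07), and 1.72-fold lower in ZJDC, -0.78 (SE 0.0783, adjusted p = 1.97e-05). Scd1, its paralog, had 36, 21 and 44 counts in PBSDC, 21, 20 and 38 in ZJDC and 12, 12 and 23 in OMVSSDC. How reads shared with Scd2 were assigned is unknown. Scd1 passed in OMVSSDC, -1.14 (SE 0.396, adjusted p = 0.0286), but not without OMVSSDC replicate 1 or 2 (adjusted p = 0.0745 and 0.105) or PBSDC replicate 1 or 3 (0.0562 and 0.119), nor in ZJDC, -0.48 (SE 0.368, adjusted p = 0.286). With replicate 3 as the lone OMVSSDC library Scd1 was -0.53 (adjusted p = 0.32). Fads2, the delta-6 desaturase of polyunsaturated fatty acids, had 83.5, 79.1 and 82.9 CPM in PBSDC, 56.3, 62.3 and 57.6 in ZJDC and 29.6, 29.1 and 35.4 in OMVSSDC. The groups were apart and the log2 fold changes were -1.38 (SE 0.0873, adjusted p = 5.99e-07) and -0.48 (SE 0.0845, adjusted p = 0.000841). Fads1, the delta-5 desaturase of the same pathway, lies on chromosome 19 like Fads2 and had 125, 123 and 124 CPM in PBSDC, 144, 139.6 and 139.7 in ZJDC and 123, 124 and 129 in OMVSSDC. It rose slightly in ZJDC, 0.19 (SE 0.0544, adjusted p = 0.0145), a call lost without PBSDC replicate 2 (adjusted p = 0.0596) or ZJDC replicate 1 (0.0615). In OMVSSDC Fads1 was 0.02 (SE 0.0545, adjusted p = 0.777); scaling by library totals alone made that 0.15 (adjusted p = 0.0253). Elovl6, the elongase of palmitate, did not pass the filter, with 2, 0 and 7 counts in PBSDC, 1, 1 and 1 in ZJDC and 0, 0 and 1 in OMVSSDC.

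**Figure D2:**
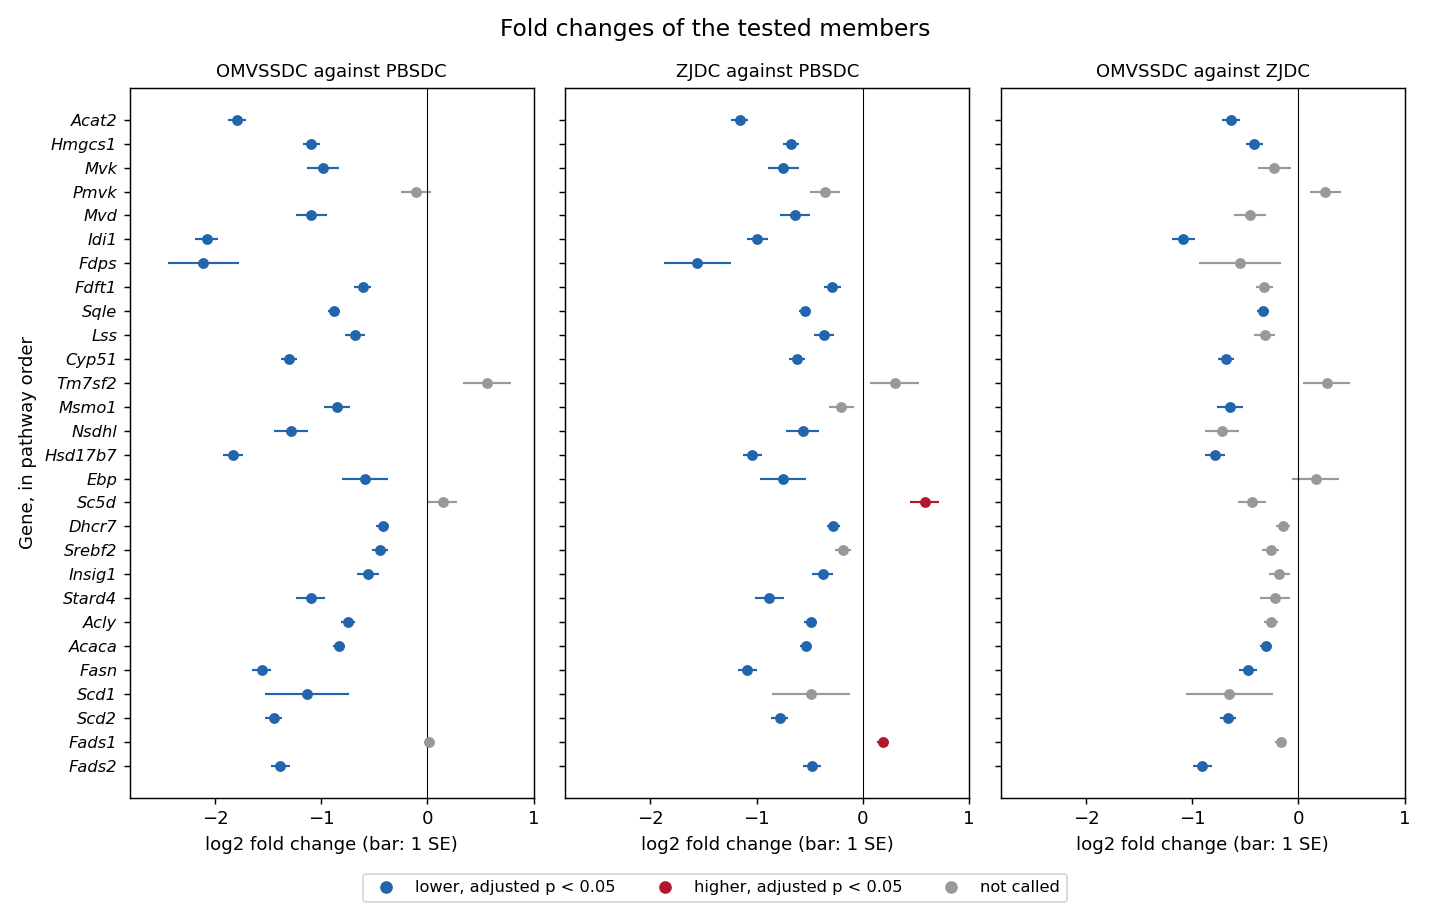
Log2 fold change (horizontal axis) of each tested gene in the 3 comparisons, with bars of 1 SE; blue marks genes called lower, red higher and grey not called at an adjusted p under 0.05. The 24 blue points against PBSDC in OMVSSDC reach from Dhcr7 at -0.42 to Fdps at -2.11, and the red points in ZJDC are Sc5d and Fads1.

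The direct comparison of OMVSSDC with ZJDC asks whether the 2 groups differ from each other. In that test 11 of 28 genes fell and 0 rose (edgeR; 0 were higher at an unadjusted p under 0.05 or by DESeq2 or limma-voom), where 1.10% of all tested genes fell and 0.856% rose; the median log2 fold change was -0.37, against 0.01 over all tested genes. The genes that fell were Acat2, Hmgcs1, Idi1, Sqle, Cyp51, Msmo1 and Hsd17b7 of the cholesterol pathway and Acaca, Fasn, Scd2 and Fads2 of the fatty acid pathway. Idi1 differed most, at -1.08 (SE 0.105, adjusted p = 0.00722), followed by Fads2 at -0.90 (SE 0.0872, adjusted p = 0.00722) and Hsd17b7 at -0.79 (SE 0.0939, adjusted p = 0.0105). Acat2, Scd2 and Cyp51 fell by 0.63, 0.66 and 0.68 (adjusted p = 0.0154, 0.0105 and 0.00892). The smallest called difference was that of Acaca, -0.30 (SE 0.0561, adjusted p = 0.0358). Sc5d did not pass, at -0.44 (SE 0.133, adjusted p = 0.0824), nor did Ebp, at 0.16 (SE 0.221, adjusted p = 0.62). For 17 of 28 genes every OMVSSDC library lay below every ZJDC library and every ZJDC library below every PBSDC library, an arrangement found for 8.63% of tested genes. The 17 include the 11 called genes except Msmo1.

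These calls against ZJDC were sensitive to single libraries. Without ZJDC replicate 1, 2 or 3 in turn, edgeR called 0 of 28 genes, and also 0 of all tested genes. At an unadjusted p under 0.05, 20, 19 and 19 of the 28 were lower. Over all tested genes, 2122 of 11698, 2341 of 11750 and 3149 of 11702 passed that unadjusted threshold, in either direction. Without OMVSSDC replicate 1 or 2 it called 3 and 2 lower, where 0.0426% and 0.0171% of tested genes were lower. Without PBSDC replicate 1, 2 or 3 it called 6 each time, where 0.145%, 0.111% and 0.136% were lower. Without OMVSSDC replicate 3 it called 21 lower and 2 higher, where 28.0% of tested genes were lower and 27.6% higher. DESeq2 called 19 lower on all 9 libraries, where 6.95% were lower. The 2 genes higher without replicate 3 were Pmvk, 0.39 (adjusted p = 0.00425), and Ebp, 0.38 (adjusted p = 0.0142). With replicate 3 as the lone OMVSSDC library, 18 genes were lower than in ZJDC and 0 higher, where 1.79% of tested genes were lower. Those calls describe 1 library. Replicate 3 lay below every ZJDC library for 24 of 28 genes, which held for 29.5% of tested genes; the other 4 were Pmvk, Fdps, Tm7sf2 and Scd1. The OMVSSDC libraries also differed among themselves in size of effect. Against ZJDC, Msmo1 was -0.40 in replicate 3 and -0.79 in replicates 1 and 2. Stard4 was -0.62 in replicate 3 and -0.06 in replicates 1 and 2, and Insig1 was -0.43 and -0.08. Nsdhl, like Msmo1, went the other way, at -0.32 in replicate 3 and -0.98 in replicates 1 and 2, as did Sc5d at -0.12 and -0.64. These differences between libraries were not tested.

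Levels between genes were compared by the authors' FPKM, which divide counts by the deposited gene length (mean ± SD, n = 3). Whether that length matches the transcripts expressed in these cells was not tested, so the order of genes is approximate. In PBSDC the highest was Scd2 at 83.3 ± 8.12 FPKM, followed by Acly at 52.7 ± 1.18 and Fasn at 51.9 ± 4.12, whose spreads overlap, and Srebf2 at 45.6 ± 2.57. Sqle was the highest cholesterol enzyme, at 26.9 ± 0.355. Cyp51, Acat2 and Dhcr7 followed at 22.4 ± 0.658, 21.0 ± 1.04 and 20.8 ± 0.905, the last pair within their spread. Tm7sf2, Fdps and Scd1 were at or below about 1 FPKM, at 0.999 ± 0.221, 0.557 ± 0.136 and 0.442 ± 0.176. In OMVSSDC the order at the top differed: Srebf2 stood at 36.6 ± 3.51, Acly at 34.3 ± 3.12 and Scd2 at 33.4 ± 3.12, within their spreads of each other. Fads1 followed at 27.3 ± 0.277 and Sc5d at 22.5 ± 4.17, then Fasn at 19.3 ± 2.42, the last pair within their spread. Sc5d, at 18.7 ± 0.899 FPKM in PBSDC below Sqle, stood above Sqle in OMVSSDC, where Sqle had 16.0 ± 1.16, and in ZJDC, at 29.2 ± 1.81 against 19.3 ± 0.274. FPKM carry no correction for library composition, so they serve here for the order of genes within a group.

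**Figure D3:**
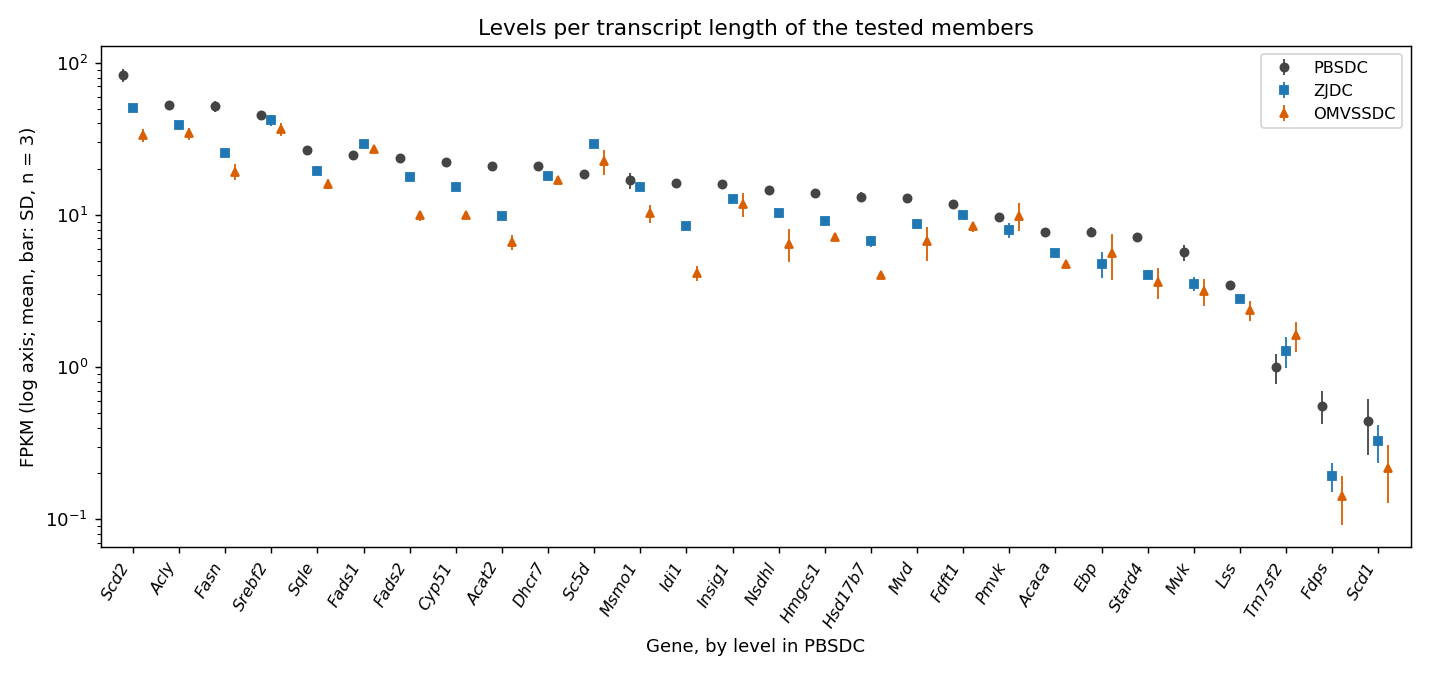
Authors' FPKM of the 28 tested genes on a log axis, as the mean of 3 libraries with bars of 1 SD, ordered along the horizontal axis by the level in PBSDC. Scd2 leads in PBSDC at 83.3 FPKM, and Sc5d lies below Sqle in PBSDC but above it in ZJDC and OMVSSDC. Heights of 1 gene are not to be compared between groups, since FPKM carry no correction for library composition.

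Other genes of lipid metabolism moved in both directions. Their lists follow pathways and were drawn up with earlier results of these data known. Their counts are to be read against all tested genes, of which 30.2% fell and 33.4% rose in OMVSSDC, and 27.1% fell and 27.6% rose in ZJDC. Of 11 tested enzymes of cholesterol and isoprenoid synthesis outside the 29, 4 fell and 3 rose in OMVSSDC against PBSDC (median -0.11). Lbr, a nuclear envelope protein that is also a C14 sterol reductase like Tm7sf2, fell from 236 ± 25.4 to 106 ± 6.39 CPM in OMVSSDC (-1.16, adjusted p = 1.76e-06) and to 124 ± 4.25 in ZJDC (-0.93, adjusted p = 1.12e-05). Pdss1, which makes the side chain of ubiquinone, fell by 1.61 and 1.39 on the log2 scale (adjusted p = 1.04e-06 and 3.94e-06). Coq2, the next enzyme of that branch, was 0.70 (SE 0.169, adjusted p = 0.00448) in OMVSSDC and 0.23 (SE 0.170, adjusted p = 0.267) in ZJDC. With replicate 3 as the lone OMVSSDC library Coq2 was 0.19 (adjusted p = 0.201), and without that replicate Coq2 passed in ZJDC (adjusted p = 0.0151). Fntb, a farnesyltransferase subunit, and Nus1, of dolichol synthesis, rose in OMVSSDC by 0.55 and 0.31 (adjusted p = 0.00129 and 0.00133).

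Of 11 genes that control SREBP, 2 fell and 3 rose in OMVSSDC, and 2 fell and 2 rose in ZJDC. Scap, the SREBP escort, fell from 72.3 ± 3.42 CPM in PBSDC to 48.9 ± 5.02 in OMVSSDC (-0.56, adjusted p = 0.000228) and 46.5 ± 1.84 in ZJDC (-0.64, adjusted p = 0.000137). Insig2, the paralog of Insig1 that retains SCAP, moved opposite to Insig1, from 20.9 ± 0.502 to 37.5 ± 7.31 CPM in OMVSSDC (0.84, adjusted p = 0.000256) and 28.9 ± 0.765 in ZJDC (0.47, adjusted p = 0.0111); in OMVSSDC it was 0.98 without replicate 3 and 0.50 with it alone. Srebf1, which encodes SREBP1, did not pass in OMVSSDC, -0.30 (SE 0.167, adjusted p = 0.136), or in ZJDC, -0.40 (SE 0.167, adjusted p = 0.0667). In OMVSSDC it was -0.13 without replicate 3 and passed as lower with that replicate alone, -0.74 (adjusted p = 0.00679). It passed in ZJDC without OMVSSDC replicate 3 (adjusted p = 0.0128), when only those 2 groups were fitted (0.0141), without ZJDC replicate 3 (0.0471) and by DESeq2 (0.0387). Ubxn8 fell by 1.12 in OMVSSDC, and Erlin1, of the degradation machinery of the endoplasmic reticulum, rose by 0.28 (adjusted p = 2.55e-05 and 0.00352).

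Of 17 genes of uptake, transport, esterification and storage, 4 fell and 8 rose in OMVSSDC (median 0.23), and 2 fell and 10 rose in ZJDC. Soat2, which esterifies cholesterol for storage, rose from 13.8 ± 1.70 CPM in PBSDC to 50.8 ± 3.37 in ZJDC and 62.0 ± 6.93 in OMVSSDC (log2 fold changes 1.87 and 2.16, adjusted p = 8.77e-07 and 2.25e-07). Npc2, which carries cholesterol out of the lysosome lumen, rose from 229 ± 0.546 to 375 ± 12.1 and 547 ± 109 CPM (0.71 and 1.25, adjusted p = 0.000772 and 1.25e-05). Gramd1c, of a family of sterol transfer proteins, rose by 1.71 in OMVSSDC (adjusted p = 0.000408). Lpl, lipoprotein lipase, fell from 808 ± 26.9 to 244 ± 4.16 CPM in ZJDC and 192 ± 32.2 in OMVSSDC (-1.73 and -2.07, adjusted p = 7.10e-07 and 1.51e-07). Cd36, a fatty acid and lipoprotein scavenger receptor, fell by 1.17 and 1.12 (adjusted p = 2.58e-05 and 2.40e-05). Of 5 tested oxysterol and LXR genes, 3 rose in OMVSSDC: Cyp27a1, which makes 27-hydroxycholesterol, Abcg1, a cholesterol exporter, and Nr1h2, LXR beta, by 0.96, 0.68 and 0.43 (adjusted p = 1.98e-05, 1.56e-05 and 0.00494). With replicate 3 alone Nr1h2 was 0.19 (adjusted p = 0.0708). Abca1, the other LXR-induced exporter, was -0.27 (SE 0.122, adjusted p = 0.079) in OMVSSDC and fell in ZJDC, -0.47 (SE 0.122, adjusted p = 0.00788); it passed as lower in OMVSSDC without OMVSSDC replicate 3 (adjusted p = 0.0239) or PBSDC replicate 1 (0.00938). Ch25h had at most 2 counts in any library and was not tested.

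Of 30 other fatty acid and lipogenic genes, 13 fell and 7 rose in OMVSSDC (median -0.15), and 9 fell and 4 rose in ZJDC. Dgat2, the last enzyme of triglyceride synthesis, rose from 4.79 ± 0.813 CPM to 17.7 ± 0.997 in ZJDC and 23.7 ± 4.12 in OMVSSDC (1.88 and 2.30, adjusted p = 8.38e-06 and 1.31e-06). Acacb, the mitochondrial acetyl-CoA carboxylase, rose by 1.01 and 1.37 (adjusted p = 3.62e-05 and 2.76e-06), opposite to Acaca. Me1, malic enzyme 1, a source of NADPH, rose by 0.72 and 0.50 (adjusted p = 0.000146 and 0.00126). Scd4, Elovl3 and Lpin1, a desaturase, an elongase and a phosphatidate phosphatase, fell by 2.51, 1.33 and 1.32 in OMVSSDC (adjusted p = 5.44e-05, 0.0038 and 2.88e-05), from means of 3.35 ± 0.401, 2.74 ± 0.746 and 6.83 ± 0.556 CPM in PBSDC. Of 17 fatty acid oxidation genes, 5 fell and 4 rose in OMVSSDC (median -0.04) and 7 fell and 2 rose in ZJDC. Hadha, Hadh and Cpt1a, which act in beta-oxidation or import into mitochondria, fell by 0.57, 0.50 and 0.43, and Decr1, Acads and Eci1 rose by 0.70, 0.59 and 0.57 in OMVSSDC (adjusted p from 1.02e-05 for Hadha to 0.0468 for Acads). With replicate 3 alone Eci1 was 0.19 (adjusted p = 0.174) and Acads -0.13 (adjusted p = 0.482), and Acads passed with no single library left out except OMVSSDC replicate 3 (adjusted p of the others 0.0575 to 0.179). In OMVSSDC against ZJDC, Acaa2, a thiolase of beta-oxidation, was the 1 oxidation gene that passed, at 0.69 (SE 0.144, adjusted p = 0.0467), a call lost without any 1 library other than OMVSSDC replicate 3 (adjusted p 0.0874 to 0.208).

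**Figure D4:**
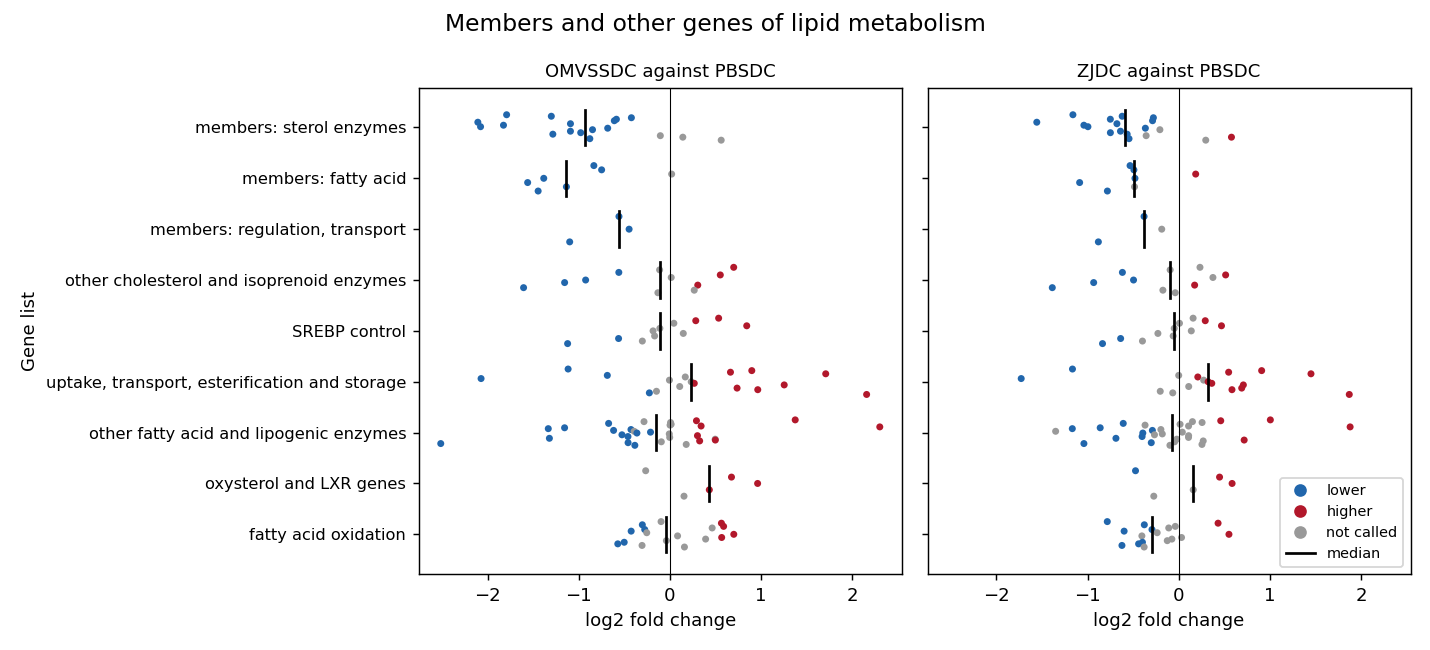
Log2 fold changes (horizontal axis) of the members, split into sterol enzymes, fatty acid enzymes and regulation or transport, and of 6 further gene lists (vertical axis), in OMVSSDC and ZJDC against PBSDC; each point is a tested gene, coloured by its call, and black bars are medians. The members' medians, -0.93 for sterol enzymes and -1.14 for fatty acid enzymes in OMVSSDC, lie left of the medians of the other lists, which run from -0.15 to 0.43. Members and lists were chosen with earlier results of these data known, so this gap is not an independent comparison.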

How the data were processed

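Total RNA from 9 DC2.4 libraries was sequenced, and the authors deposited 1 table of read counts and FPKM per gene. Per the submitters' processing notes, fastp 0.22.0, HISAT2 2.1.0 and HTSeq 0.9.1 were used. The sources used here do not give the genome build, the annotation, the strand setting or the handling of shared reads. The deposited FPKM equal counts over gene length and library total, with no further scaling, and served only to compare levels between genes. All tests used the deposited counts.

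Genes with a count of at least 10 in enough libraries and at least 15 in all (edgeR's filterByExpr) were kept, 11568 of 21959; 4916 genes were at 0 throughout. edgeR 4.0.16 in R 4.3.3 fitted the 3 groups over all 9 libraries with TMM factors (0.954 to 1.07) and robust quasi-likelihood tests with 6 residual degrees of freedom, and p-values were Benjamini-Hochberg adjusted across the 11568 genes (threshold 0.05). Every adjusted p is from this test unless another tool is named. SEs are the log2 fold change over the square root of F. The fit was also run on counts simulated with the same spread for all genes and libraries, with results not reported here. That setting does not cover the gap between OMVSSDC replicate 3 and replicates 1 and 2. Alternatives were 18: other scaling (RLE size factors, library totals alone), filters, DESeq2 1.42.0, limma 3.58.1 voom, a replicate block, a fit of 2 groups, and left-out libraries. Numbers 1 to 3 were checked as pairs across groups: 1 of 9 same-number pairs correlated above 0.1, so no pairing was used. Correlations ran from -0.45 to 0.11 in same-number pairs and from -0.27 to 0.39 in pairs of different number. The check covers pairing by number only, and other links between libraries were not tested.

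The members and lists were chosen with earlier results of these data known. Named genes were all members and, in each other list, up to 3 per direction with the largest change past the threshold in OMVSSDC against PBSDC, plus Srebf1, Scap, Insig2, Ch25h, Abca1 and Lpl. Coq2 in ZJDC and the single markers were added after their values were seen. Some genes that this rule picks are not reported here.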

Additional observations from a re-analysis of the deposited data

How the results depend on the processing

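In OMVSSDC against PBSDC and ZJDC against PBSDC, the count of genes called lower stayed within 22 to 24 and 20 to 24 under all 18 alternatives, which tested 28 of the genes, except 26 with a minimum count of 50 and 29 with no filter. Genes called higher in OMVSSDC against PBSDC numbered 0 with all libraries, 2 by library totals alone, 1 with a minimum count of 50, 1 with OMVSSDC replicate 3 alone, and 0 to 1 with single libraries left out; in ZJDC they numbered 1 to 2 with single libraries left out. In OMVSSDC against ZJDC, 11 were called lower with all libraries, 7 by library totals alone, 19 by DESeq2, 18 with OMVSSDC replicate 3 alone, 0 when only these 2 groups were fitted (19 at an unadjusted p under 0.05), and 0 to 21 with single libraries left out; genes called higher ranged from 0 to 2. Calls over all genes in that comparison went from 226 to 1570 by DESeq2, 355 with replicate 3 alone, 0 with 2 groups (2558 at an unadjusted p under 0.05) and 0 to 6539 with single libraries left out; the cause was not tested. With the replicate block, which has no basis in the labels, OMVSSDC against ZJDC gave 0 genes over all (2955 at an unadjusted p under 0.05) and 0 of 28 (19), and in the other comparisons the block changed the calls of Ebp and Acads alone among the genes named, both in OMVSSDC against PBSDC (adjusted p = 0.0654 and 0.0928, edgeR). Of calls in OMVSSDC against ZJDC, 43.8% were higher, 55.8% by library totals alone. Library totals alone moved the median of all genes in OMVSSDC against PBSDC from 0.05 to 0.18, and Ebp then no longer passed (adjusted p = 0.112, edgeR). Signs reversed, with no call, in OMVSSDC against PBSDC for Pmvk (0.027 by library totals alone, 0.035 without OMVSSDC replicate 3, range with single libraries left out -0.20 to 0.035), Sc5d (-0.058 without replicate 3, range -0.058 to 0.23) and Fads1 (-0.011 by RLE size factors, -0.012 by DESeq2, -0.0035 without replicate 3, range -0.0035 to 0.028). In OMVSSDC against ZJDC they reversed for Pmvk (-0.10), Tm7sf2 (-0.12) and Ebp (-0.48) with replicate 3 alone, and for Ebp without replicate 2 (-0.032, range -0.032 to 0.38). Acads reversed in OMVSSDC against PBSDC with replicate 3 alone (-0.13). Depth limits Fdps, Scd1 and Tm7sf2, which rest on few reads, and Elovl6, which could not be tested.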
